A study of Mus musculus with 6 samples.

Results

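Vascular endothelial growth factors, their receptors and the angiopoietins were examined in SL4 cells with and without forced expression of SEMA6A. The group holds 10 genes, taken by symbol from the 53700 genes listed in the expression table. They are the ligands Vegfa, Vegfb, Vegfc, Vegfd and Pgf, the receptors Flt1, Kdr and Flt4, and the angiopoietins Angpt1 and Angpt2. Each symbol named a single gene identifier. SL4 is a mouse colorectal cancer (CRC) line that carries luciferase. The control group, here pLV-Control, is 3 libraries of SL4 cells that do not overexpress SEMA6A. The other group, pLV-SEMA6A, is 3 libraries of SL4 cells that stably overexpress it from a lentivirus. The cells were grown in culture and received no further agent that the labels name. The labels do not say whether the control cells carry an empty vector, whether the overexpressing cells are a clone or a pool, or whether replicates are separate cultures. The p-values therefore measure the spread between these libraries, which may be technical, and an effect of SEMA6A cannot be told apart from a difference between 2 cell lines.

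The VEGF ligands are secreted proteins that make endothelial cells grow, migrate and form vessels. VEGF-A acts mainly through the receptor KDR (VEGFR2), while FLT1 (VEGFR1) binds VEGF-A, VEGF-B and placental growth factor (PGF) and can act as a decoy. VEGF-C and VEGF-D act on FLT4 (VEGFR3) in lymphatic endothelium. Angiopoietin 1 activates the endothelial receptor TEK and stabilises vessels, and angiopoietin 2 can oppose it. In carcinomas the tumour cells are a known source of the ligands and the endothelium is the usual site of the receptors. SEMA6A is a transmembrane semaphorin that signals through plexins. A recombinant domain of it has been reported to inhibit growth factors and the formation of tumour vessels. The comparison asks which of these genes SL4 cells express in culture and whether their mRNA differed in pLV-SEMA6A.

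Expression was read as TPM, the abundance of transcripts after correction for their length. The header of the table does not name the unit, which was inferred from column sums close to that of TPM and from RSEM in the submitters' processing notes. Comparisons of level between genes, their order and the ligand shares below rest on it. TPM keeps no sequencing depth, which is unknown, and no interval from counts can be given. Listed values added up to 977400 to 986444 TPM per library. Sema6a was listed at 0 in every pLV-Control library and at 98.7 to 118 TPM in the pLV-SEMA6A libraries, the direction that the labels give. Differences were tested on the log2(TPM + 1) scale with limma over 12510 genes, those whose mean reached 1 TPM. This scale understates the change of low genes. A gene passed the test at an adjusted p under 0.05, and was called a differentially expressed gene (DEG) if its log2 fold change was also over 0.5 in size. The median log2 fold change of all genes tested was −0.06. Of the 15 endothelial markers, none was tested, 6 were listed at 0 in all libraries, and their summed level was 1.82 to 2.05 TPM in pLV-Control and 1.25 to 2.12 TPM in pLV-SEMA6A. Pecam1, Cdh5 and Cldn5 were at or near 0. Of the 10 epithelial and colon markers, Epcam, Cdx1 and Cdx2 were listed at 0 in all 6 libraries and Cdh1 did not exceed 0.03 TPM, so these defining markers of the labelled tissue were at or near 0. Lgals4 was the single marker of this list that was tested, and it fell from 2.15 ± 0.32 to 0.36 ± 0.41 TPM (mean ± SD of 3 libraries). It reached the filter only through its pLV-Control level. The leukocyte markers summed to between 0.87 and 2.53 TPM.

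Vegfa, the main growth factor of blood vessels, was the most abundant of the 10 genes and ranked 480 among all listed genes by mean TPM. The pLV-Control libraries gave 299.8, 300.3 and 298 TPM, against 261, 274 and 252 TPM from pLV-SEMA6A. The pLV-Control libraries lay within a narrow range and every pLV-SEMA6A library lay below them. The means were 299.4 ± 1.12 and 262 ± 11.1 TPM (mean ± SD of 3 libraries), so Vegfa fell by 12.4%. On the log2 scale this was −0.19 (standard error 0.03, 95% interval −0.27 to −0.11, limma adjusted p = 0.00392), which is below the size asked of a DEG. By exact two-sided permutation p was 0.1, and 3 libraries against 3 can give no smaller value. Relative to the median of all genes, the log2 difference was −0.13. In bulk RNA, fewer cells that express a gene and less RNA per cell cannot be told apart.

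Pgf, a ligand of FLT1 alone among the VEGF receptors, was the next in abundance. Its pLV-Control values of 59.7, 64.5 and 60.1 TPM all lay above its pLV-SEMA6A values of 54.0, 49.9 and 48.0 TPM. The means were 61.4 ± 2.63 and 50.6 ± 3.05 TPM (mean ± SD of 3 libraries), and Pgf fell by 17.6%. Its log2 fold change was −0.27 (standard error 0.05, 95% interval −0.41 to −0.14, limma adjusted p = 0.00688). Vegfb, also a ligand of FLT1 and better known for roles in heart and fat tissue than for vessel growth, followed Pgf in level. Control libraries held 41.7, 45.6 and 41.9 TPM of it, and pLV-SEMA6A libraries 34.0, 32.5 and 36.7 TPM, again without overlap. Vegfb fell by 20.2%, from 43.1 ± 2.21 to 34.4 ± 2.14 TPM (mean ± SD of 3 libraries). On the log2 scale this was −0.32 (standard error 0.06, 95% interval −0.46 to −0.17, limma adjusted p = 0.00548). Vegfa, Pgf and Vegfb each kept an adjusted p from limma under 0.05 when any 1 library was left out.

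The promoters of these 3 ligands are shown because their mRNA was lower in every pLV-SEMA6A library. They are RefSeq sequences of GRCm38.p6, 250 bases long and ending just before the transcription start, from the minus strand in each case. Where RefSeq gives several starts, as for Vegfa and Pgf, the most upstream one was taken. Capitals mark GGGCGG or its reverse complement, the GC box that Sp1-type factors bind. The Vegfa window is chr17:46032378-46032627, the Pgf window chr12:85177314-85177563 and the Vegfb window chr19:6987652-6987901.
Vegfa: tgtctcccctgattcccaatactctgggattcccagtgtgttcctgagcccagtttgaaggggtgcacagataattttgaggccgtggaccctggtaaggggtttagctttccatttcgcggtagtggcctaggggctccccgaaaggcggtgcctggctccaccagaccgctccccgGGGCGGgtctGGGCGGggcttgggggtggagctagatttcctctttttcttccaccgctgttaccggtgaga
Pgf: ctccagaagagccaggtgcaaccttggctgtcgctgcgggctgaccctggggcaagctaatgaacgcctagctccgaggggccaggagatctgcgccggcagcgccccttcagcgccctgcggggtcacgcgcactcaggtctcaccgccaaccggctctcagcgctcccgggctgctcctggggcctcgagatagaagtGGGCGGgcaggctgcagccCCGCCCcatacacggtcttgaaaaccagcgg
Vegfb: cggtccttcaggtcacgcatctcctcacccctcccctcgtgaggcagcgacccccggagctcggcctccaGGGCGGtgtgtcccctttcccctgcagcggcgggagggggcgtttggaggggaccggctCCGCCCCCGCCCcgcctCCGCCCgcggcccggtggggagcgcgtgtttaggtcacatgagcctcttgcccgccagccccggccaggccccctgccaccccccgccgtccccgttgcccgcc
GGGCGG occurred 2 times in the Vegfa window, 2 times in the Pgf window and 4 times in the Vegfb window, counting both strands. It occurred in 32.7% of all 32851 windows of the same length. The hypoxia response core ACGTG (in 16.6% of all windows), the STAT motif TTCNNNGAA (in 7%) and the AP-1 motif TGANTCA (in 6.7%) did not occur in these 3 windows on either strand. At the second Vegfa start in RefSeq, ACGTG and GGGCGG each occurred 1 time. That window, chr17:46025164-46025413, lies inside the gene, downstream of the first start. Its ACGTG match falls in bases that encode the VEGF-A protein. At the second Pgf start neither occurred, so the counts depend on the start that is taken. The windows held 59.2% (Vegfa), 68.4% (Pgf) and 76.4% (Vegfb) G and C, against a median of 52.4% over all windows. A match of letters is not evidence that a factor binds, and regulatory sequence outside these windows was not searched.

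**Figure D1:**
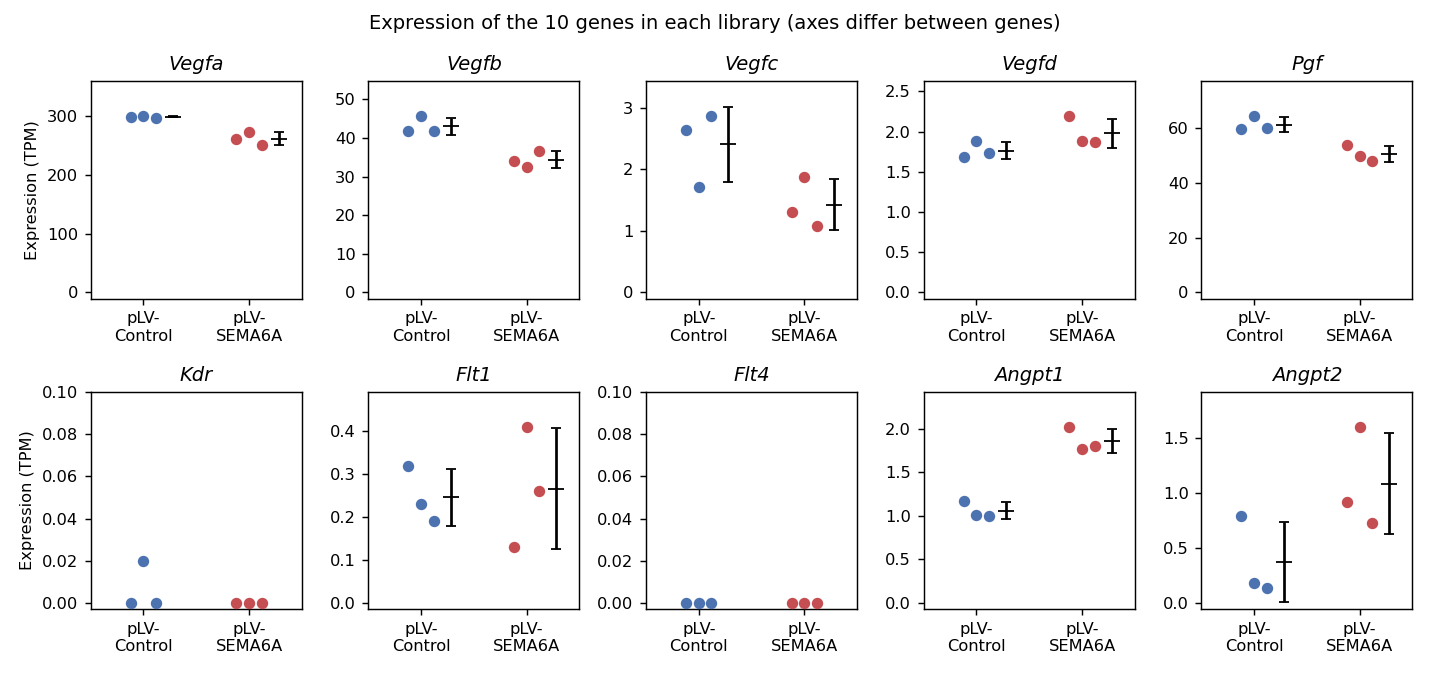
Expression in TPM (vertical axes, from 0, with a scale of its own for each gene) of the 10 genes in the pLV-Control (blue) and pLV-SEMA6A (red) libraries; points are libraries, and bars give the mean and SD of 3 libraries except for Kdr and Flt4. The groups are apart for Vegfa, Vegfb, Pgf and Angpt1, and overlap or lie at 0 for the other 6 genes.

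The lymphatic ligands were expressed at a far lower level. Vegfc values were 2.64, 1.71 and 2.86 TPM for pLV-Control, against 1.31, 1.88 and 1.08 TPM for pLV-SEMA6A. The groups overlapped, because pLV-Control replicate 2 lay below pLV-SEMA6A replicate 2. The means were 2.40 ± 0.61 and 1.42 ± 0.41 TPM (mean ± SD of 3 libraries), with a log2 fold change of −0.49 (standard error 0.20, 95% interval −0.97 to −0.00035). This difference did not pass the test (limma, adjusted p = 0.0908). Without pLV-Control replicate 2 it was −0.64 and met the criterion of a DEG (limma, adjusted p = 0.0471), so that library decides the call. For Vegfd the pLV-Control libraries gave 1.68, 1.88 and 1.73 TPM, against 2.19, 1.88 and 1.87 TPM from pLV-SEMA6A. The groups overlapped, since pLV-SEMA6A replicate 3 at 1.87 TPM lay below pLV-Control replicate 2 at 1.88 TPM. The log2 fold change of 0.11 (standard error 0.13, 95% interval −0.19 to 0.41) did not pass the test (limma, adjusted p = 0.509).

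Summed over the 5 ligands, expression was 406, 414 and 405 TPM in pLV-Control and 353, 359.9 and 339 TPM in pLV-SEMA6A. All pLV-SEMA6A sums were lower, with means of 408 ± 5.10 and 351 ± 10.5 TPM (mean ± SD of 3 libraries, exact permutation p = 0.1). The makeup of this ligand pool, which does not depend on how libraries were scaled to each other is given by its shares. Vegfa made up 73.9%, 72.5% and 73.7% of it in pLV-Control and 74.1%, 76.1% and 74.2% in pLV-SEMA6A. The difference in its share was 1.39 percentage points (exact two-sided permutation p = 0.1, n = 3 each). Every pLV-SEMA6A library was above every pLV-Control library. Vegfb held 10.6 ± 0.41% of the pool in pLV-Control and 9.83 ± 0.91% in pLV-SEMA6A (exact permutation p = 0.3, n = 3 each). Pgf held 15.1 ± 0.45% and 14.4 ± 0.76% (exact permutation p = 0.3, n = 3 each). Vegfc and Vegfd each stayed under 1% in every library. The share of Vegfd was 0.43 ± 0.020% and 0.56 ± 0.051%, without overlap (exact permutation p = 0.1, n = 3 each).

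**Figure D2:**
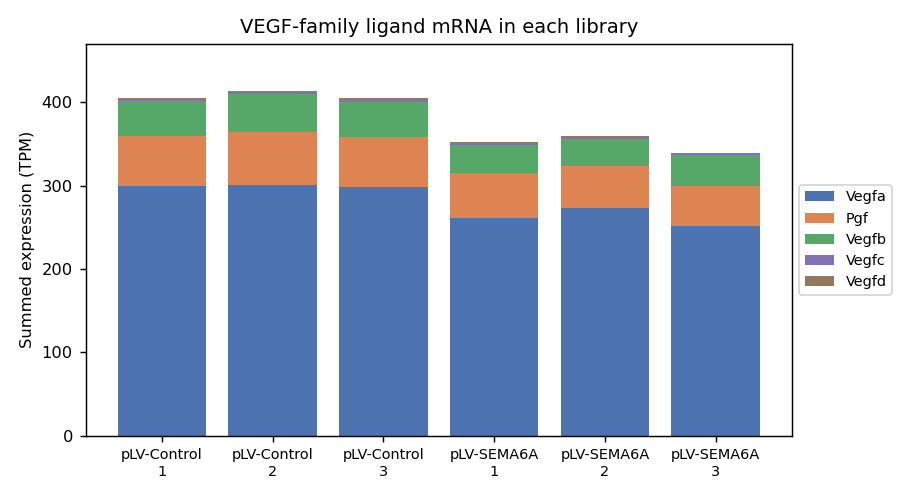
Summed TPM (vertical axis, from 0) of the 5 VEGF-family ligands in each of the 6 libraries, with 1 stacked bar per library and colours for the ligands. The 3 pLV-SEMA6A bars are shorter, at 339 to 359.9 TPM against 405 to 414 TPM, and Vegfa takes the largest part of every bar.

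The VEGF receptors were at or near 0. Kdr, the main signalling receptor for VEGF-A, reached 0.02 TPM in pLV-Control replicate 2 and was listed at 0 elsewhere. Flt4, the lymphatic receptor, was listed at 0 in all 6 libraries. A listed 0 can be a failed estimate, so no fold is given for either. Flt1 values were 0.32, 0.23 and 0.19 TPM for pLV-Control, against 0.13, 0.41 and 0.26 TPM for pLV-SEMA6A. Its groups overlapped fully, and an exact two-sided permutation test of its means gave p = 0.9 (n = 3 each). All 3 receptors were below the filter on low values and had no adjusted p. With every gene above 0 included, Flt1 had a log2 fold change of 0.02 (limma, adjusted p = 0.910).

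Of the angiopoietins, Angpt1 held 1.17, 1.01 and 1.00 TPM for pLV-Control, against 2.02, 1.77 and 1.80 TPM for pLV-SEMA6A. The lowest pLV-SEMA6A library lay above the highest pLV-Control library. Angpt1 rose from 1.06 ± 0.10 to 1.86 ± 0.14 TPM (mean ± SD of 3 libraries), or 1.76-fold on the TPM scale. The log2 fold change of 0.47 (standard error 0.14, 95% interval 0.14 to 0.81, limma adjusted p = 0.0290) was just under the size asked of a DEG. With a pseudocount of 0.1 in place of 1 it was 0.76 (limma, adjusted p = 0.0306) and Angpt1 was a DEG. Leaving out any 1 of the 6 libraries kept the log2 fold change between 0.44 and 0.51. The adjusted p from limma was 0.0454 without pLV-Control replicate 1. It was 0.0716 and 0.0725 without pLV-Control replicates 2 and 3, and 0.0894, 0.0606 and 0.0641 without pLV-SEMA6A replicates 1, 2 and 3. Exons of the antisense gene Gm17473 overlap 14.2% of the exonic bases of Angpt1. The counting is not stated to use strand, and Gm17473 was listed at 0 in all libraries.

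Angpt2 had a mean of under 1 TPM over the 6 libraries, below the filter. Its values were 0.79, 0.18 and 0.14 TPM for pLV-Control, against 0.92, 1.60 and 0.73 TPM for pLV-SEMA6A. The groups overlapped through pLV-Control replicate 1, and the exact two-sided permutation test gave p = 0.2 (n = 3 each). With the filter lowered to 0.1 TPM, Angpt2 had a log2 fold change of 0.61 (standard error 0.24) that did not pass the test (limma, adjusted p = 0.0959).

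In pLV-Control the order of levels was Vegfa, Pgf, Vegfb, Vegfc, Vegfd, Angpt1, Angpt2 and Flt1, with Kdr and Flt4 at or near 0. Among these neighbours, the libraries overlapped between Vegfc and Vegfd and between Angpt2 and Flt1. In pLV-SEMA6A the 3 leading ligands kept their places without overlap. Vegfd, Angpt1, Vegfc and Angpt2 followed in that order of means, and each overlapped the next. Of the 10 genes, 6 passed the filter, and 0 of the 6 were DEGs. Among all genes tested, 1987 were DEGs (15.9%), 640 higher (5.12%) and 1347 lower (10.8%). Centring the libraries on their medians turned the split into 1002 higher and 961 lower. At an adjusted p from limma under 0.05 with no minimum fold, 4 of the 6 passed, against 47.6% of all genes tested. Of these, 3 were lower (28.2% of all genes) and 1 was higher (19.5%). The unadjusted p was under 0.05 for 5 of the 6, against 54.9% of all genes tested. Without its trend option limma also called 0 of the 6 DEGs, beside 1973 DEGs among the 12510 genes tested. The libraries of the groups did not overlap for 4 of the 6 genes and for 58.5% of all genes tested. With each library centred on its median, the log2 fold change was −0.098 for Vegfa, −0.18 for Pgf, −0.22 for Vegfb and 0.57 for Angpt1, and each still passed the test.

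**Figure D3:**
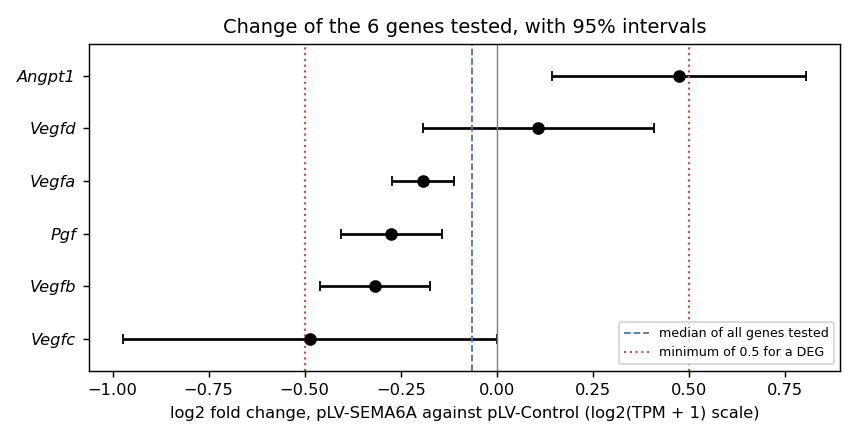
Log2 fold change of pLV-SEMA6A against pLV-Control on the log2(TPM + 1) scale (horizontal axis) for the 6 genes that passed the filter; points are limma estimates and bars 95% intervals from 3 libraries per group. The intervals of Vegfa, Pgf and Vegfb lie below 0 and that of Angpt1 above 0, the interval of Vegfc ends just below 0 at −0.00035 (adjusted p = 0.0908), and all 6 estimates lie inside the dotted lines at 0.5 on either side.

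The genes with the pattern most like that of Vegfa were Gng12, Mid1 and D5Ertd579e, over the 6 libraries and all genes tested. Likeness was the root mean square difference of log2(TPM + 1) values centred on each gene, which was 0.012, 0.013 and 0.015. The same was asked for Vegfc, whose log2 difference on the log2(TPM + 1) scale, −0.49, was the largest in size of the 6 genes tested, although it did not pass the test. Angpt1 was the larger with a pseudocount of 0.1 (0.76 against −0.72), with libraries centred on their medians (0.57 against −0.39) and with quantile normalization (0.65 against −0.31). The genes most like Vegfc were Gm14418, Gm39197 and Guca1a, with 0.059, 0.072 and 0.087.

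The receptors and partners around these genes were examined through lists of 110 genes in all, of which 79 were tested. NRP1 and NRP2 are co-receptors that help VEGF-A and VEGF-C bind their receptors and also bind class 3 semaphorins. Nrp1 rose from 2.93 ± 0.37 to 4.61 ± 0.30 TPM (mean ± SD of 3 libraries), a log2 fold change of 0.52 (limma, adjusted p = 0.00864). It fell under the size of a DEG without pLV-Control replicate 1 (0.46), without pLV-Control replicate 2 (0.498) or without pLV-SEMA6A replicate 3 (0.47). Nrp2 was the more abundant, at 71.4 ± 2.85 and 77.7 ± 0.69 TPM (mean ± SD of 3 libraries), with a log2 fold change of 0.12 (limma, adjusted p = 0.0342). Its adjusted p from limma was 0.0694 to 0.0955 in the 5 fits that left out a library other than pLV-Control replicate 3. Eng, a TGF-β co-receptor best known in endothelium, had a log2 fold change of −0.34. The angiopoietin receptor genes Tek and Tie1 were at or near 0. Of the 7 genes that process VEGF-C and VEGF-D, 4 were tested and 0 were DEGs, against 15.9% of all genes tested. Furin, a protease that cleaves the precursors, had a log2 fold change of 0.26 (limma, adjusted p = 0.00939). Ccbe1, a cofactor of VEGF-C cleavage, was listed at 0 throughout. Adamts14 had a log2 fold change of 0.15 that did not pass the test (limma, adjusted p = 0.0645). It passed without pLV-SEMA6A replicate 3 (0.19), with libraries centred on their medians (0.24) and with quantile normalization (0.195).

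The 3 angiopoietin-like genes that were tested were all DEGs, against 15.9% of all genes tested. Angptl4, which inhibits lipoprotein lipase, rose from 1.01 ± 0.28 to 4.35 ± 0.74 TPM, and Angptl2 rose from 39.5 ± 2.02 to 66.8 ± 1.62 TPM (mean ± SD of 3 libraries). Angptl6 fell from 107 ± 0.62 to 61.1 ± 4.09 TPM (mean ± SD of 3 libraries). Their log2 fold changes were 1.41, 0.75 and −0.81.

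Vegfa is a textbook target of hypoxia-inducible factor (HIF), so the mRNA of the HIF genes was read beside it. These values do not show the level of HIF protein or its activity. Hif1a, the oxygen-regulated subunit, was at 99.3 ± 3.20 and 100.5 ± 3.09 TPM (mean ± SD of 3 libraries), with a log2 fold change of 0.02. Centred on library medians it was 0.11 and passed the test (limma, adjusted p = 0.0440), and with quantile normalization it was −0.03. Arnt, its partner, fell from 78.3 ± 2.08 to 50.3 ± 2.92 TPM (mean ± SD of 3 libraries), a log2 fold change of −0.63 (limma, adjusted p = 0.000140). It was the single DEG of 8 HIF pathway genes tested, where 15.9% of all genes tested were DEGs. The list held 2 DEGs, of which 1 was higher, without pLV-SEMA6A replicate 3, with libraries centred on their medians and with quantile normalization. Egln2, an oxygen sensor, had a log2 fold change of 0.07, and of 0.17 with centred libraries, where it passed the test. Of 14 HIF-induced genes tested, 3 were DEGs and all 3 were higher, against 5.12% of all genes tested. These were Slc2a1, the glucose transporter GLUT1 (log2 fold change 0.81), Ankrd37 (0.60) and Ddit4 (0.54). Ankrd37 lost the test without pLV-Control replicate 1 (log2 fold change 0.48), pLV-Control replicate 2 (0.64), pLV-SEMA6A replicate 2 (0.49) or pLV-SEMA6A replicate 3 (0.62), and Ddit4 was at 0.49 without pLV-Control replicate 3. At an adjusted p from limma under 0.05 alone, 8 of the 14 were higher, among them Ldha (0.49) and Pgk1 (0.37), and 2 were lower, where 19.5% of all genes tested were higher and 28.2% lower. The median of the list was 0.28, against −0.06 for all genes tested and −0.19 for Vegfa. With libraries centred on their medians, which moves every log2 fold change up by 0.093, 9 were higher and 1 lower. The percentages above are for libraries that were not centred. In the centred setting 5 of the 14 were DEGs, all higher, beside 1002 higher and 961 lower among the 12510 genes tested.

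Other secreted factors that promote vessel growth differed in direction. Of 13 tested, 1 was a DEG that was higher and 5 were DEGs that were lower, against 5.12% higher and 10.8% lower among all genes tested. Their median was −0.17 on the log2 scale, against −0.06 for all genes tested. Ptn, the growth factor pleiotrophin, rose from 7.14 ± 0.47 to 21.7 ± 2.31 TPM (mean ± SD of 3 libraries), a log2 fold change of 1.47. Ccn1, a matricellular protein, fell from 739 ± 17.6 to 314 ± 9.05 TPM (mean ± SD of 3 libraries), a log2 fold change of −1.23. The chemokine gene Cxcl1 fell by 1.08 on the log2 scale, from 126 ± 2.67 to 59.5 ± 3.74 TPM (mean ± SD of 3 libraries). The endothelin gene Edn1 fell by 0.82 at a far lower level, from 2.01 ± 0.21 to 0.71 ± 0.07 TPM (mean ± SD of 3 libraries). Edn1 reached the filter only through its pLV-Control level. Spp1, which encodes osteopontin and was the most abundant gene of the list, had a log2 fold change of 0.38, and Pdgfc one of −0.17, which did not pass the test with centred libraries (−0.08). Of 9 genes tested in the list of secreted inhibitors of angiogenesis, 4 were DEGs and all 4 were lower, against 10.8% of all genes tested. The median of the list was −0.32, against −0.06 for all genes tested. This median is the value of Vash2, which was not a DEG. Vash2 is better known as a promoter of vessel growth than as an inhibitor, so the median does not describe inhibitors alone. Cxcl10, an interferon-induced chemokine that restrains endothelial growth, fell from 188 ± 1.07 to 58.2 ± 3.14 TPM (mean ± SD of 3 libraries), a log2 fold change of −1.68. The thrombospondin gene Thbs1 fell by 0.88, Thbs2 by 0.67 and the metalloproteinase inhibitor gene Timp3 by 0.63. Serpinf1, which encodes PEDF, and Sparc were the most abundant of this list and were not DEGs, with log2 fold changes of −0.04 and 0.14. The direction for Serpinf1 turned to 0.05 with libraries centred on their medians.

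Of 25 genes of VEGF receptor signalling tested, 1 was a DEG, against 15.9% of all genes tested. Prkca, a protein kinase C isoform, rose from 14.6 ± 2.81 to 23.4 ± 3.11 TPM (mean ± SD of 3 libraries), a log2 fold change of 0.66. The abundant GTPase genes Cdc42 and Rac1 had log2 fold changes of 0.20 and 0.22. At an adjusted p from limma under 0.05 alone, 12 of the 25 were higher and 6 lower, where 19.5% of all genes tested were higher and 28.2% lower. These genes also serve many other receptors.

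**Figure D4:**
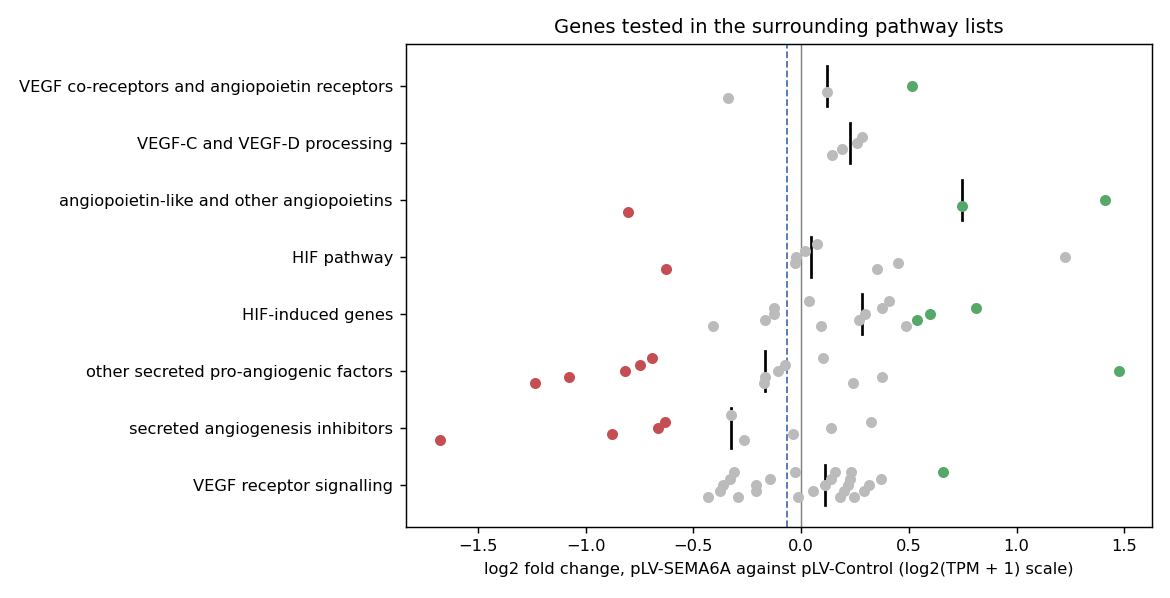
Log2 fold change of pLV-SEMA6A against pLV-Control (horizontal axis, log2(TPM + 1) scale) for the genes tested in 8 surrounding lists; each point is a gene, green for a DEG that was higher, red for a DEG that was lower and grey for the rest, black bars are list medians and the dashed line is the median of all genes tested. The DEGs of the inhibitor list lie below 0 and those of the HIF-induced list above 0.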

How the data were processed

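Poly-A mRNA of 3 pLV-Control and 3 pLV-SEMA6A libraries was sequenced. The table deposited by the authors gives values per library, read here as TPM, with 2 decimals, and group means that were not used here. The submitters' processing notes name HISAT, Bowtie2, RSEM and the build mm39, without roles or versions. The annotation is not given in the sources used here. Sequencing depth is unknown.

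Genes were taken by symbol, with the highest mean TPM where a symbol had several identifiers. The group effect on log2(TPM + 1) was estimated by limma-trend (limma 3.58.1, R 4.3.3) for 12510 genes whose mean reached 1 TPM. Benjamini-Hochberg adjustment covered all of these. A DEG needed an adjusted p below 0.05 together with a log2 fold change larger than 0.5 in size. Intervals are those of the moderated fit. Single values were compared by exact permutation of the libraries. The planned design allowed for counts, and its test for normalized values was used. The members and lists were chosen with earlier results of these data known. In each list, up to 4 DEGs with the largest log2 fold change and the 2 most abundant tested genes that were not DEGs are named. Tested genes of other lists are given as counts. Steps were tested on simulated data in which 200 genes changed. At an adjusted p from limma under 0.05, 82% of log2 changes of 1 and 52% of changes of 0.5 were recovered. Among genes with a mean of 1 to 3 TPM, where Vegfc, Vegfd and Angpt1 lie, these were 30% and 0%. For such genes a test that was not passed says little about small changes. More genes differed in the data than in the simulation, so the rates may not carry over.

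Replicate numbers come from the labels. Between libraries that share a number, deviations from the group means correlated at −0.08 to −0.02, so the numbers were not taken as pairs. Promoter windows come from RefSeq on GRCm38.p6 and were matched by symbol for 8 of the 10 genes, and exon overlaps come from GENCODE M21. Neither build is the one in the processing notes, and no expression value depends on them. The alternatives tried were other pseudocounts, filters, scalings and minimum fold changes, limma without trend, a replicate block and leaving out each library.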

Additional observations from a re-analysis of the deposited data

How the results depend on the processing

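The directions of Vegfa, Vegfb, Pgf, Vegfc, Vegfd and Angpt1 were the same in all 14 alternative fits of each. Vegfa, Vegfb and Pgf passed the test in every one, with log2 fold changes from −0.27 to −0.098, −0.36 to −0.22 and −0.32 to −0.18. The number of these genes called DEGs was 0 and became 1 (Angpt1) with a pseudocount of 0.1, with libraries centred on their medians, with quantile normalization, or with a pseudocount of 0.1 and a filter of 0.1 TPM together, which was chosen after seeing the data. It became 4 with no minimum fold change, and was between 0 and 1 when a library was left out. Among all genes, 5959 were called with no minimum fold change and 385 with a minimum of 1, and among the genes of the surrounding lists 54 and 5 in place of 19. The log2 fold change of Hif1a was −0.033 with quantile normalization, −0.0098 without pLV-Control replicate 2 and −0.0066 without pLV-SEMA6A replicate 1, and at most 0.0366 when a library was left out. Serpinf1 was at 0.054 with libraries centred on their medians and 0.0032 with quantile normalization. None of these 5 values passed the test.

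Adding a replicate block gave 1924 DEGs among all genes and 0 among the 6 genes tested. Under the block Angpt1 lost the test (adjusted p = 0.0784 from limma), as did Nrp2 (adjusted p = 0.0568) and Ankrd37 (adjusted p = 0.0514). The numbers were not shown to pair the libraries. For the share of Vegfa in the ligand pool, exact sign flips over the 3 numbers gave p = 0.25, the smallest they allow. TPM sets no detection limit, so low values such as those of Flt1 and Kdr cannot be separated from 0 by depth.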

Other observations

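Fibroblast and pericyte markers, which belong to the cells that surround vessels, were partly expressed in the SL4 libraries. They summed to 159.9 to 173 TPM in pLV-Control and 276 to 287 TPM in pLV-SEMA6A. Of 7 tested, 3 were DEGs that were higher and 2 were DEGs that were lower, against 5.12% and 10.8% of all genes tested. Dcn and Cspg4 were tested and were not DEGs. Acta2, smooth muscle actin, rose from 31.2 ± 1.93 to 94.1 ± 2.83 TPM (mean ± SD of 3 libraries), a log2 fold change of 1.57. Col3a1 rose from 119 ± 8.05 to 172 ± 3.85 TPM and Col1a1 from 1.27 ± 0.11 to 3.60 ± 0.24 TPM (mean ± SD of 3 libraries). Pdgfrb, the receptor that pericytes use to follow endothelial PDGF-B, fell from 10.5 ± 0.27 to 6.66 ± 0.22 TPM (mean ± SD of 3 libraries), a log2 fold change of −0.59. Pdgfra had a log2 fold change of −0.63, from 1.76 ± 0.33 to 0.78 ± 0.15 TPM (mean ± SD of 3 libraries), and reached the filter only through its pLV-Control level. Whether cells of these types were present was not tested.

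Arnt2, a brain-enriched relative of Arnt in the HIF pathway list, was singled out after its values were seen. The library pLV-SEMA6A replicate 1 gave 12.6 TPM while no other library exceeded 0.05 TPM, and it did not pass the test (limma adjusted p = 0.345).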
